A study of Bos grunniens and Bos grunniens x Bos taurus with 12 samples.

Results

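Genes of the Hedgehog signalling pathway were examined in Ribo-seq data of yak and cattle–yak testes. The 9 genes were chosen by symbol and by their known role, not by a measured value, though earlier results of these data were known. They were the ligand *DHH*, the receptor *PTCH1*, the decoy receptor *HHIP*, the co-receptor *GAS1* and the signal transducer *SMO*. The others were the inhibitor *SUFU* and the transcription factors *GLI1*, *GLI2* and *GLI3*. The deposited tables list 20965 genes by Ensembl identifier, 13662 of them with a symbol, and each of the 9 symbols was found on exactly 1 row, so that 0 of the 9 were absent. The tables give no gene positions.

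Hedgehog ligands are secreted proteins that bind PTCH1 on neighbouring cells. Without ligand, PTCH1 holds SMO inactive, and SUFU keeps the GLI factors in check. Ligand binding releases SMO, and the GLI factors then switch on target genes, among which are *PTCH1*, *GLI1* and *HHIP* themselves, so the receptor and the decoy also act as feedback inhibitors. In the mammalian testis, *DHH* is made by Sertoli cells inside the seminiferous cords, whereas Leydig cells, peritubular myoid cells and their progenitors in and around the interstitium respond to it. GLI2 and GLI3 relay the signal as activators or, in the case of GLI3 above all, as repressors, and GLI1 is an activator whose own synthesis is a common readout of the pathway.

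Ribo-seq sequences ribosome footprints (RFs), the mRNA pieces that ribosomes shield from nuclease, and its read number per gene is called the translation level here. It was performed on testes of 4 groups of 3 males: yak (*Bos grunniens*) of 6 months (juvenile), 18 months (puberty) and 4 years (sexual maturity), and cattle–yak, labelled with the same 4 years and with sexual maturity. The cattle–yak is a hybrid of a Jersey cattle bull and a Gannan yak cow whose males are sterile. No group received a drug or carried an engineered allele. According to the labels all testes were taken by castration, whereas the methods of the study state euthanasia for the yak of 4 years and castration for the hybrid. RFs of all groups, the hybrid included, were aligned to the yak genome BosGru 3.0. No batch is given in the labels, so a difference between groups cannot be told apart from one in library preparation.

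Total counts on genes were 25816963 to 37167651 per library at 6 months, 21309151 to 24542362 at 18 months, 16304058 to 17862516 at 4 years and 38437889 to 52616039 in cattle–yak. The yak of 18 months were unlike each other. The summed FPKM (counts divided by effective gene length and by library total) of the elongating spermatid markers with a row was 1.84, 6662.88 and 13.06 in replicates 1, 2 and 3, against 0.96 to 1.2 at 6 months, 8152.31 to 11201.82 at 4 years and 1.13 to 26.43 in cattle–yak. Replicate 2 of this group was the lowest of its 3 libraries for all 9 Hedgehog genes. How many of all genes were lowest there was not computed, so this tally has no background. Because the 3 libraries differed, the numbers of Hedgehog genes called different in comparisons with this group are given with and without replicate 2. Group means, list medians and correlations include replicate 2.

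The ligand *DHH* (ENSBGRG00000001304) had the highest FPKM of the 9 genes in each group. Its FPKM was 40.45, 29.66 and 29.05 in the 3 yaks of 6 months, 29.26, 18.34 and 25.48 at 18 months, 12.19, 22.25 and 14.92 at 4 years, and 21.17, 33.30 and 24.65 in cattle–yak. The group means were 33.1 ± 6.41 (SD, n = 3) at 6 months, 26.4 ± 6.25 in cattle–yak, 24.4 ± 5.55 at 18 months and 16.5 ± 5.20 at 4 years, and each neighbouring pair in this order overlapped. The libraries of 4 years all lay below those of 6 months, whereas replicate 2 of the yaks of 4 years lay above replicate 1 of the cattle–yaks. The ligand rested on 265 to 1569 counts per library.

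Among the proteins that bind the ligand at the cell surface, *PTCH1* (ENSBGRG00000009313) was the receptor itself. Its FPKM was 13.34, 11.39 and 14.31 at 6 months, 18.12, 12.44 and 18.20 at 18 months, 5.88, 7.87 and 7.37 at 4 years, and 8.95, 12.10 and 9.76 in cattle–yak. Every cattle–yak library was above every yak library of 4 years, and the cattle–yak range overlapped that of 6 months. *PTCH1* differed from *DHH* in its order of groups, with the highest mean FPKM at 18 months (16.3 ± 3.30) and not at 6 months (13.01 ± 1.49), although these ranges overlapped. This order depended on scaling by library total. With the TMM scaling used below, the log2 fold change of *PTCH1* from 6 to 18 months was −0.02.

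*HHIP* (ENSBGRG00000006858) encodes a membrane protein that binds Hedgehog ligands and keeps them from PTCH1. Its FPKM was 6.53, 5.17 and 6.34 at 6 months, 4.87, 2.12 and 3.74 at 18 months, 0.43, 0.73 and 1.03 at 4 years, and 2.02, 3.60 and 2.35 in cattle–yak. The cattle–yak libraries lay between the yak groups of 4 years and 6 months without overlapping either. The yaks of 4 years held 16 to 35 counts of *HHIP*, so their values were among the least precise of the set.

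*GAS1* (ENSBGRG00000005843) encodes a membrane-anchored co-receptor that promotes ligand binding. Its FPKM was 16.51, 16.41 and 15.59 at 6 months, 9.21, 4.03 and 8.59 at 18 months, 1.72, 2.37 and 1.87 at 4 years, and 4.99, 4.42 and 3.60 in cattle–yak. The 3 juvenile yaks were nearly equal, and the cattle–yaks again stood between the yaks of 4 years and those of 6 months, apart from both.

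*SMO* (ENSBGRG00000009570), which carries the signal across the membrane, did not share this intermediate position. Its FPKM was 12.83, 10.97 and 12 at 6 months, 9.31, 3.41 and 4.57 at 18 months, 2.36, 2 and 1.94 at 4 years, and 1.45, 3.10 and 2.48 in cattle–yak. The cattle–yak range enclosed that of the yaks of 4 years, and both lay below all younger yaks. *SUFU* (ENSBGRG00000007124), the cytoplasmic inhibitor, varied least between the yak of 4 years and cattle–yak among the genes whose FPKM ranges did not overlap. Its FPKM was 13.41, 16.89 and 18.63 at 6 months, 17.04, 11.55 and 16.48 at 18 months, 7.47, 9.55 and 7.64 at 4 years, and 9.90, 9.70 and 11.88 in cattle–yak. The highest yak of 4 years (9.55) was just under the lowest cattle–yak (9.70).

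The 3 GLI factors were translated at low levels, with FPKM from 0.21 to 2.29. *GLI1* (ENSBGRG00000006415) had FPKM of 0.89, 1.29 and 1.40 at 6 months, 1.13, 0.90 and 1.37 at 18 months, 0.30, 0.38 and 0.48 at 4 years, and 1.61, 1.78 and 1.46 in cattle–yak. The cattle–yaks had the 3 highest FPKM values of all 12 libraries and the yaks of 4 years the 3 lowest. *GLI2* (ENSBGRG00000002594) had the lowest mean of the 9 genes in every group, with FPKM of 0.52, 0.74 and 1 at 6 months, 0.66, 0.51 and 1.31 at 18 months, 0.48, 0.37 and 0.21 at 4 years, and 0.96, 1 and 0.99 in cattle–yak. Each cattle–yak library was above each yak library of 4 years, while the ranges of the cattle–yaks and the younger yaks overlapped. The yaks of 4 years held 17 to 26 counts of *GLI1* and 16 to 41 of *GLI2*.

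*GLI3* (ENSBGRG00000009720) had FPKM of 2.28, 1.92 and 2.24 at 6 months, 1.83, 1.13 and 2.04 at 18 months, 0.76, 0.73 and 1.02 at 4 years, and 1.28, 2.05 and 2.29 in cattle–yak. In FPKM the yaks of 4 years were below all other libraries. As CPM, that is counts relative to library total without length, they overlapped with the cattle–yaks. Cattle–yak replicate 1 had a CPM of 3.61 and replicate 3 of the yaks of 4 years one of 3.74. For this gene FPKM and counts do not run in parallel, because the effective length implied by the deposited count, FPKM and library total ranged from 2431 to 4776 bases between libraries (1.96-fold), whereas it varied by at most 1.09-fold for the other 8 genes.

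**Figure D1:**
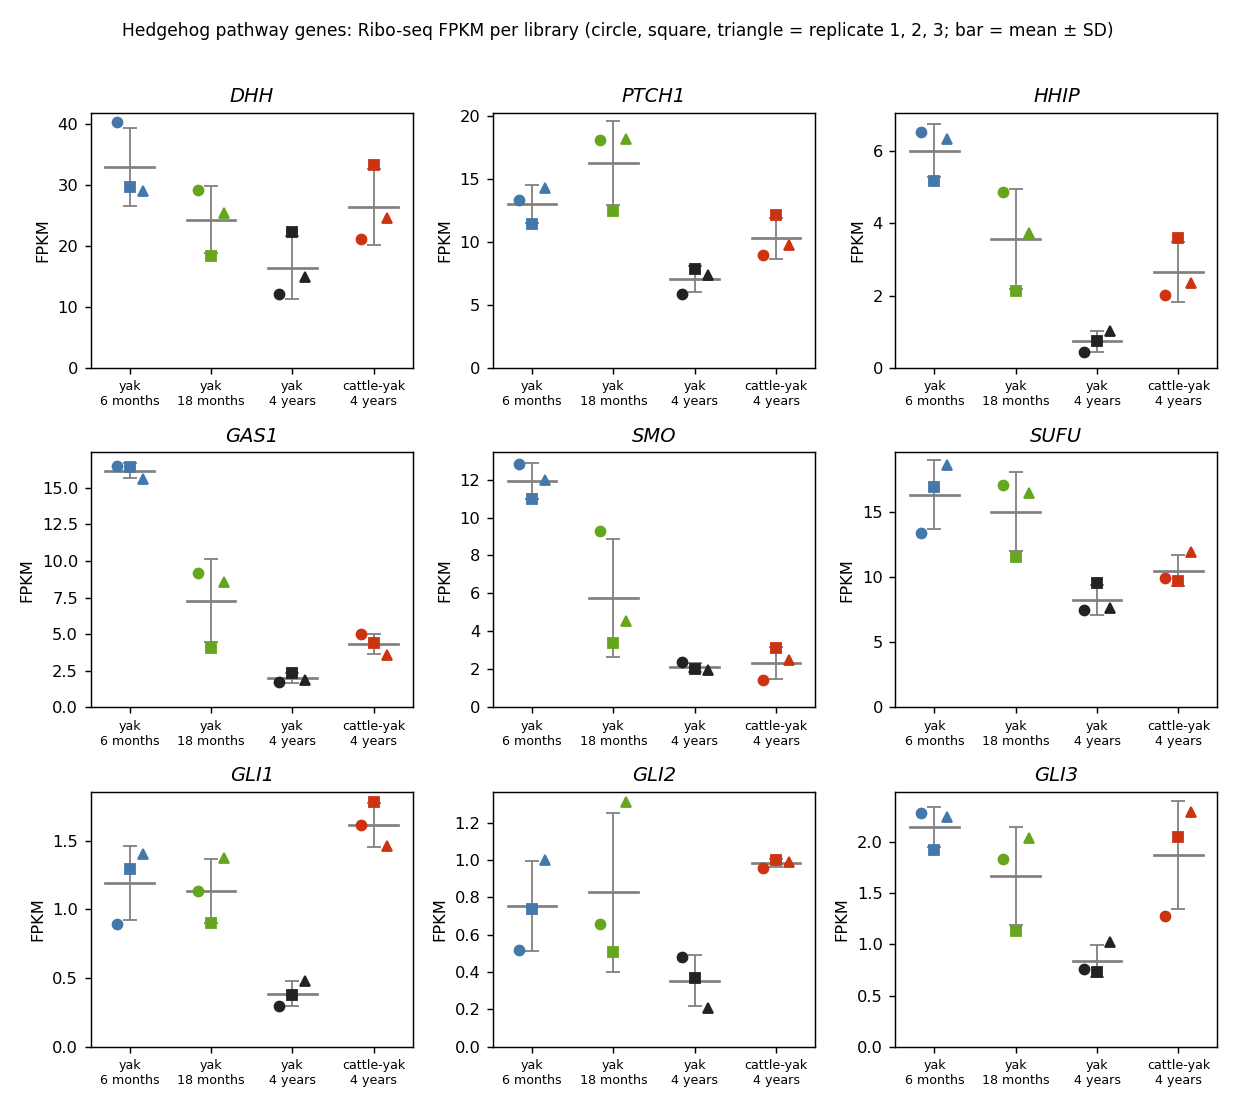
Translation level of the 9 Hedgehog pathway genes. Each panel shows 1 gene with FPKM on the vertical axis from 0 and the 4 groups on the horizontal axis. Symbols are libraries (circle, square and triangle for replicates 1, 2 and 3), and the grey line and bar give mean ± SD (n = 3). The yaks of 4 years have the lowest mean of each gene. The cattle–yaks are above them without overlap in FPKM for each gene but *DHH* and *SMO*. For *GLI3* this does not hold on counts relative to library total. How many of all genes lack overlap was not computed, so this tally has no background. By edgeR, a different measure, 65.7% of all genes had an adjusted p below 0.05 in this comparison, with 17.1% called higher and 27% lower at 2-fold.

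Groups were then compared on the counts with edgeR's quasi-likelihood test and Benjamini-Hochberg adjustment over all genes that passed a filter on low counts. A differentially translated gene (DTG) had an adjusted p below 0.05 and at least a 2-fold difference, that is a log2 fold change of 1 or more, up or down. All 9 genes passed the filter in each of the 5 comparisons. These comparisons share groups, so their results are not independent of each other.

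Across puberty, from 6 to 18 months, no Hedgehog gene was a DTG by edgeR, against 0.0202% of all tested genes higher and 0.0471% lower. Fold changes were below 0 for all 9 genes, from −0.02 for *PTCH1* to −1.48 for *GAS1* on the log2 scale, and 5 had an unadjusted p below 0.05. Of all genes 25.8% had one in either direction and 11.5% with a lower level. DESeq2 called 2 of the 9 lower, with 5.43% of all genes lower and 7.13% higher. Without replicate 1 of the yaks of 18 months, *GAS1*, *HHIP* and *SMO* were DTGs with lower levels, in a fit that called 8.08% of all genes lower, and without replicate 2 none was.

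From 18 months to 4 years, again no Hedgehog gene was a DTG by edgeR, against 0% of all genes higher and 0.0371% lower. Log2 fold changes ran from −0.79 for *DHH* to −2.52 for *HHIP*, and 8 of the 9 genes had an unadjusted p below 0.05. The share of all genes was 35.4% in either direction and 23.6% with a lower level. DESeq2 called 7 of the 9 lower, with 14.2% of all genes lower and 12.9% higher. Without replicate 2 of the yaks of 18 months, which carried the spermatid markers, 8 of the 9 were DTGs with lower levels at 4 years, in a fit that called 18.5% of all genes lower. *DHH* was the gene not called in that fit.

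Over the whole interval from 6 months to 4 years, all 9 Hedgehog genes were lower DTGs, against 24.7% of all genes lower and 31% higher. The steepest falls were those of the membrane proteins *HHIP* (log2 fold change −3.63, SE 0.329), *GAS1* (−3.60, SE 0.194) and *SMO* (−3.08, SE 0.194), with edgeR adjusted p of 1.29e-05, 5.51e-07 and 1.38e-06. *GLI1* fell by 2.19 (SE 0.336), *GLI3* by 1.96 (SE 0.217) and *GLI2* by 1.64 (SE 0.407) on the log2 scale. *SUFU* fell by 1.64 (SE 0.168) and *DHH* by 1.60 (SE 0.265), and *PTCH1* fell least, by 1.46 (SE 0.172). The adjusted p of *DHH* was 0.000553 and that of *GLI2*, the largest of the 9, was 0.00564 by the same test. The median log2 fold change of the 9 was −1.96, against 0.08 over all genes.

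This last comparison depends on how libraries are scaled. With library size alone in place of TMM, the median of all genes moved from 0.08 to 0.64, and the DTGs moved from 5009 higher and 3985 lower to 6596 higher and 2493 lower. All 9 Hedgehog genes stayed below 0, and *PTCH1* (−0.88) was then the one gene under 2-fold, with *DHH* at −1.004. On log2(FPKM + 1) with limma, 3 of the 9 (*HHIP*, *GAS1* and *SMO*) were lower DTGs, with 12.7% of all genes lower, and the other 6 were below 0 by less than 2-fold.

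Between cattle–yak and yak of 4 years, the comparison the study was built on, all 9 fold changes were above 0, and 4 genes were higher DTGs in cattle–yak, against 17.1% of all genes higher and 27% lower. *GLI1* had the largest difference, with a log2 fold change of 2.09 (SE 0.284, edgeR adjusted p = 0.000294). It was followed by the decoy receptor *HHIP* with 1.84 (SE 0.385, adjusted p = 0.00310), *GLI2* with 1.48 (SE 0.341, adjusted p = 0.00515) and the co-receptor *GAS1* with 1.14 (SE 0.241, adjusted p = 0.00330). The ligand *DHH* was higher with adjusted p = 0.0362, but by less than 2-fold (0.69, SE 0.247), and so was the receptor *PTCH1* (0.55, SE 0.160, adjusted p = 0.0149). The remaining log2 differences were 0.51 (SE 0.255) for *GLI3*, 0.41 (SE 0.173) for *SUFU* and 0.16 (SE 0.291) for *SMO*, none of which passed the test. An adjusted p below 0.05 was held by 6 of the 9 genes, all higher, and by 65.7% of all genes, higher or lower.

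Whether *DHH*, which was not a DTG, had an adjusted p below 0.05 depended on single animals. Its adjusted p was above 0.05 when replicate 1 or 3 of the yaks of 4 years or replicate 2 of the cattle–yaks was left out (the log2 fold change without the latter was 0.50), and without replicate 2 of the yaks of 4 years the difference reached 1.03 and the gene became a DTG. *HHIP*, *GLI1*, *GLI2* and *GAS1* kept their calls whichever of the 6 libraries was left out. On log2(FPKM + 1) with limma *HHIP* alone of them passed 2-fold, with *GLI1* at 0.92, *GAS1* at 0.84 and *GLI2* at 0.56, and 13.6% of all genes were called higher. *GLI3* was a DTG in cattle–yak on log2(FPKM + 0.1) with limma (1.05), and its implied length was 2431 to 2821 bases in the hybrid libraries against 3668 to 4755 in the yaks of 4 years. Its adjusted p in the edgeR test fell to 0.0450 without cattle–yak replicate 1 (0.69), and that of *SUFU* to 0.0362 without replicate 2 of the yaks of 4 years (0.58), both short of 2-fold. Scaling made little difference here, with a median of all genes of 0.00 by TMM and −0.01 by library size alone.

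Against the juvenile yaks, 5 genes were lower DTGs in cattle–yak, with 19.7% of all genes lower and 18.1% higher. *SMO* was lower by a log2 fold change of −2.90 (SE 0.284, edgeR adjusted p = 8.96e-05), *GAS1* by −2.44 (SE 0.178), *HHIP* by −1.76 (SE 0.276), *GLI3* by −1.42 (SE 0.234) and *SUFU* by −1.21 (SE 0.155). *DHH* and *PTCH1* both stood at −0.88 with adjusted p of 0.0136 and 0.00277, short of 2-fold. Both passed 2-fold without juvenile replicate 2 (−1.0003 and −1.01) and without cattle–yak replicate 2 (−1.08 and −1.01), *DHH* also without juvenile replicate 3 (−1.002), and without cattle–yak replicate 1 the adjusted p of *DHH* was 0.0516 (−0.74). *GLI1* at −0.08 (SE 0.228) and *GLI2* at −0.14 (SE 0.261) did not pass. On library size alone the median of all genes moved from −0.02 to 0.52 and the DTGs from 2823 higher and 3067 lower to 4867 and 1875. *GLI1* (0.44) and *GLI2* (0.38) then changed sign without being called, in the direction of their FPKM values, and the lower DTGs were *SMO*, *GAS1* and *HHIP*, with *GLI3* at −0.89 and *SUFU* at −0.68.

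**Figure D2:**
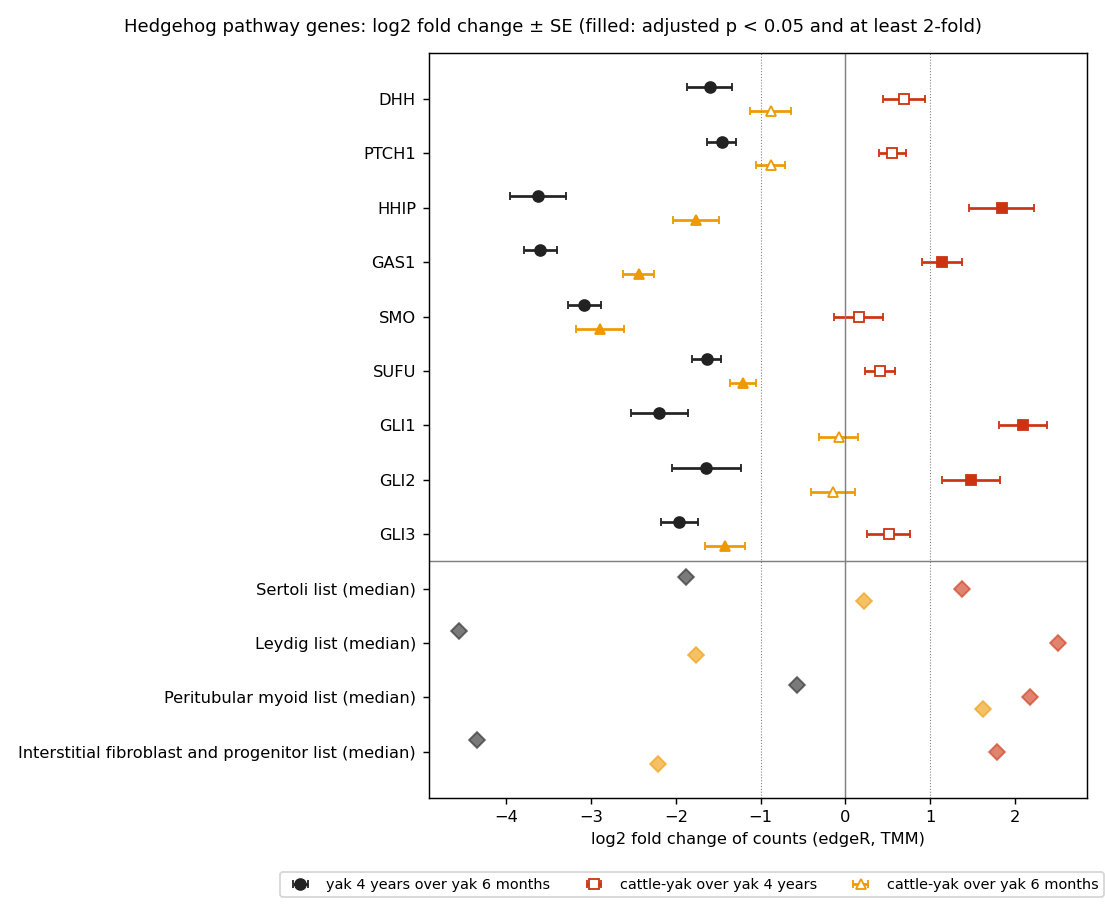
Log2 fold change of the 9 Hedgehog pathway genes in 3 comparisons that share groups. The horizontal axis is the log2 fold change of TMM-scaled counts with dotted lines at 2-fold, circles stand for yak of 4 years over 6 months, squares for cattle–yak over yak of 4 years and triangles for cattle–yak over yak of 6 months, bars are standard errors and filled symbols are DTGs. Diamonds give the medians of marker lists. All circles of the 9 genes are filled and below −1, and the filled squares are *HHIP*, *GAS1*, *GLI1* and *GLI2*.

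Levels of the genes that respond to the signal were set against the ligand in each library, as the ratio of their FPKM values, which are per length. Since both terms come from the same library, the ratio does not depend on scaling. *PTCH1* stood at 33.0%, 38.4% and 49.3% of *DHH* at 6 months, 61.9%, 67.8% and 71.4% at 18 months, 48.2%, 35.4% and 49.4% at 4 years, and 42.3%, 36.3% and 39.6% in cattle–yak. The 3 yaks of 18 months, replicate 2 among them, were above all others, and the remaining groups overlapped.

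*HHIP* stood at 16.1%, 17.4% and 21.8% of *DHH* at 6 months, 16.6%, 11.6% and 14.7% at 18 months, 3.53%, 3.28% and 6.90% at 4 years, and 9.54%, 10.8% and 9.53% in cattle–yak. The yaks of 4 years were the lowest of the 4 groups and the cattle–yaks the next, without overlap. *GLI1* stood at 2.2%, 4.35% and 4.82% of *DHH* at 6 months, 3.86%, 4.91% and 5.38% at 18 months, 2.46%, 1.71% and 3.22% at 4 years, and 7.61%, 5.35% and 5.92% in cattle–yak. All cattle–yaks exceeded all yaks of 4 years, and their lowest ratio lay just under the highest of 18 months.

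*SMO*, which is not a classical target, stood at 31.7% to 41.3% of *DHH* at 6 months and 6.85%, 9.31% and 10.1% in cattle–yak. The cattle–yak values overlapped those of the yaks of 4 years, which were 19.4%, 8.99% and 13%. These ratios are a description of 3 libraries per group, and no test was made of them. The ligand and its targets are made in different cells, and in bulk tissue fewer cells of a type and a lower translation level per cell cannot be told apart.

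**Figure D3:**
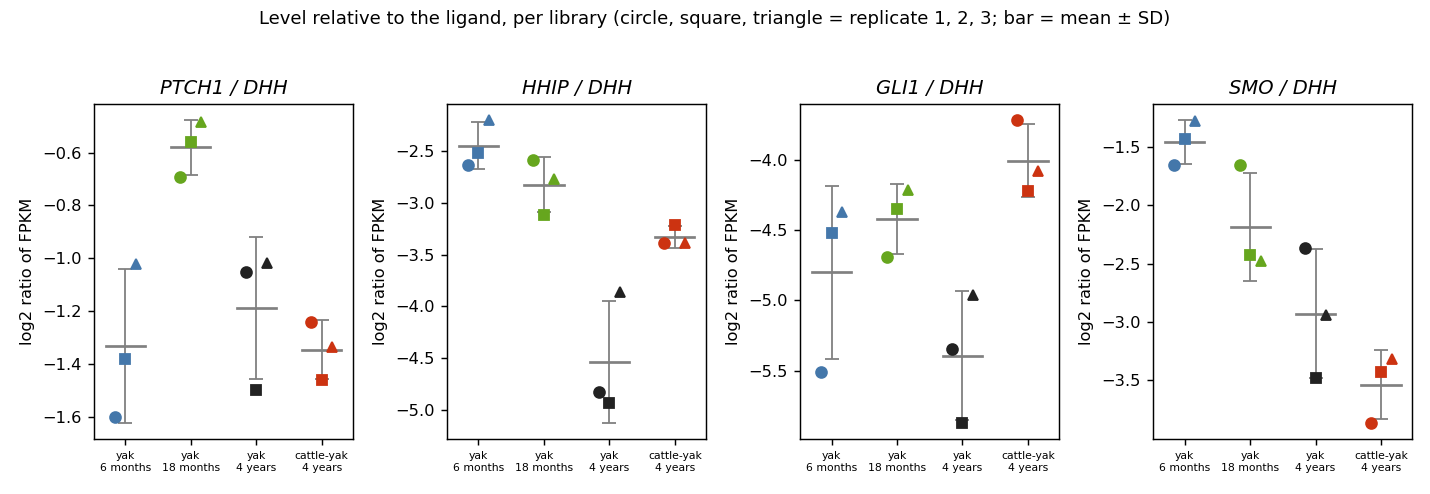
Translation level of *PTCH1*, *HHIP*, *GLI1* and *SMO* relative to the ligand *DHH*. The vertical axis is the log2 ratio of the 2 FPKM values within a library and differs between panels, symbols are libraries (circle, square and triangle for replicates 1, 2 and 3), and the grey line and bar give mean ± SD (n = 3). *HHIP* and *GLI1* are higher relative to *DHH* in each cattle–yak than in each yak of 4 years, whereas *PTCH1* is highest at 18 months.

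Markers of the cells that send and receive the signal were measured in the same libraries. Of 14 Sertoli markers 8 had a row under their symbol (*AMH*, *CLDN11* and *CLU* were among those without one), and their summed FPKM was 6216.1 to 7641.55 at 6 months, 782.2 to 1080.13 at 4 years and 1593.86 to 1846.33 in cattle–yak. Most of this sum was *INHA*, the inhibin alpha subunit, with 5825.05 to 7288.26 FPKM at 6 months, 493.85 to 703.31 at 4 years and 715.65 to 950.28 in cattle–yak. From 6 months to 4 years 4 of 7 Sertoli markers were lower DTGs and 1, *INHBB*, was higher (1.59 on the log2 scale), against 24.7% and 31% of all genes. *WT1* and *DMRT1* stood at −0.83 and 0.90, under 2-fold. Of the 7 tested between cattle–yak and yak of 4 years, 4 were higher DTGs, against 17.1% of all genes. The list median was 1.37 on the log2 scale. *SOX9*, the Sertoli cell transcription factor, had a log2 fold change of 2.41 and *FSHR*, the receptor for follicle-stimulating hormone, one of 0.30, with *DHH* at 0.69 between them.

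For Leydig cells 3 of 9 markers had a row, without *INSL3*, *CYP17A1* and *LHCGR*, and their summed FPKM was 1688.62 to 2653.89 at 6 months, 86.27 to 218.19 at 4 years and 672.11 to 1133.99 in cattle–yak. All 3 were higher DTGs in cattle–yak than in yak of 4 years (median 2.50), against 17.1% of all genes. So were 7 of 7 peritubular myoid markers (median 2.18, with *ACTA2* at 2.49 and *MYH11* at 2.21) and 6 of 7 markers of interstitial fibroblasts and progenitors (median 1.79). Not every somatic list rose. Of the endothelial markers 0 of 5 were higher and 1 lower (median 0.37), and of the macrophage markers 0 of 4 were higher and 1 lower (median −0.17). The 9 Hedgehog genes had a median of 0.69 in the same comparison. *GLI1* and *HHIP* were above the interstitial median, by 0.302 (SE of *GLI1* 0.284) and 0.05 (SE of *HHIP* 0.385). None of the 9 was above the Leydig or the peritubular median, from which *GLI1* differed by −0.408 and −0.08 and *HHIP* by −0.66 and −0.332. From 6 months to 4 years the medians were −1.88 for Sertoli, −4.56 for Leydig, −0.57 for peritubular and −4.34 for interstitial markers, beside −1.96 for the Hedgehog genes. In cattle–yak over 6 months the lists did not run together: the medians were 0.22 for Sertoli, −1.77 for Leydig, 1.63 for peritubular and −2.21 for interstitial markers, beside −1.21 for the Hedgehog genes. Of the peritubular markers 4 of 7 were higher DTGs in that comparison, against 18.1% of all genes. From 6 to 18 months the peritubular median was 1.35 and that of the Hedgehog genes −0.79.

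Spermatid markers were lower in cattle–yak. The round spermatid list summed to 1236.41 to 1802.97 FPKM in yak of 4 years and 4.24 to 9.10 in cattle–yak. In cattle–yak 5 of 5 were lower DTGs, against 27% of all genes. *TXNDC8* (16, 0 and 0 counts in cattle–yak) and *ACRV1* (64, 14 and 7) passed the filter on low counts through the yaks of 4 years alone. Their calls are therefore not taken as support. The part of cell composition in the differences of the Hedgehog genes was not tested.

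The rest of the pathway was described by a list of 43 further symbols, of which 37 had a row. Between cattle–yak and yak of 4 years, 36 were tested, and 5 were higher and 6 lower DTGs, against 17.1% higher and 27% lower among all genes, and the median of the list was 0.01 on the log2 scale against 0.00 over all genes. By role, 0 of 9 cilium modulators were higher and 3 lower, 1 of 6 receptors and co-receptors was higher, 1 of 6 genes for ligand processing and release was higher and 2 lower, and 2 of 14 kinases and degradation factors of GLI were higher and 1 lower.

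The highest of these in cattle–yak was *SHH*, the ligand best known from limb and neural development. It had 100, 246 and 169 counts in the 3 cattle–yaks and 3, 2 and 2 in the yaks of 4 years, with 0 to 4 in the younger yaks. Its FPKM in cattle–yak was 1.41, 4.72 and 3.25, below the *DHH* level of the same libraries. Relative to total counts and pooled over libraries, the ratio to the yaks of 4 years was 29.5, with a 95% exact interval of 14.2 to 73.7 that covers counting error only. *SHH* passed the filter on low counts through the cattle–yak libraries alone and was not tested between yak groups. No p is therefore given for it, and its place among the higher DTGs counted above is not taken as support. *IHH*, the third Hedgehog ligand, had 0 to 2 counts in every library.

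*LRP2* (megalin), an endocytic receptor that can bind SHH, had a log2 fold change of 2.73 (SE 0.408). That of *PRKACB*, a catalytic subunit of protein kinase A, which restrains the GLI factors, was 2.02 (SE 0.124). Cattle–yak replicates 1, 2 and 3 had *LRP2* FPKM of 1.57, 3.37 and 4.13. Replicate 3 of the yaks of 18 months exceeded them with 6.01, whereas replicates 1 and 2 of that group had 0.32 and 0.91. Mean FPKM of *PRKACB* was 126 ± 8.55 (SD, n = 3) in the hybrid and 30.6 ± 2.05 in the yaks of 4 years. Both younger yak groups were near the hybrid, the juveniles with 108 ± 9.20 and those of 18 months with 133 ± 41.5. The largest falls were in *GPR161*, a ciliary receptor that keeps the pathway off (−3.86, SE 0.166), *DISP3*, of the dispatched family (−3.35, SE 0.296), and *HHAT*, the acyltransferase that attaches palmitate to the ligand (−3.07, SE 0.281). For *HHAT* the FPKM was 26.4 ± 5.56 at 4 years (SD, n = 3), against 3.21 ± 0.840 at 6 months and 3.19 ± 1.09 in the hybrid. At 18 months, replicates 1, 2 and 3 had FPKM of 2.96, 19.96 and 2.65 for *GPR161* and 2.93, 12.06 and 2.72 for *HHAT*. For *DISP3* they had 0.03, 1.04 and 0.24. Each gene was thus highest in replicate 2, which carried the spermatid markers. The part of spermatids in these falls was not tested.

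**Figure D4:**
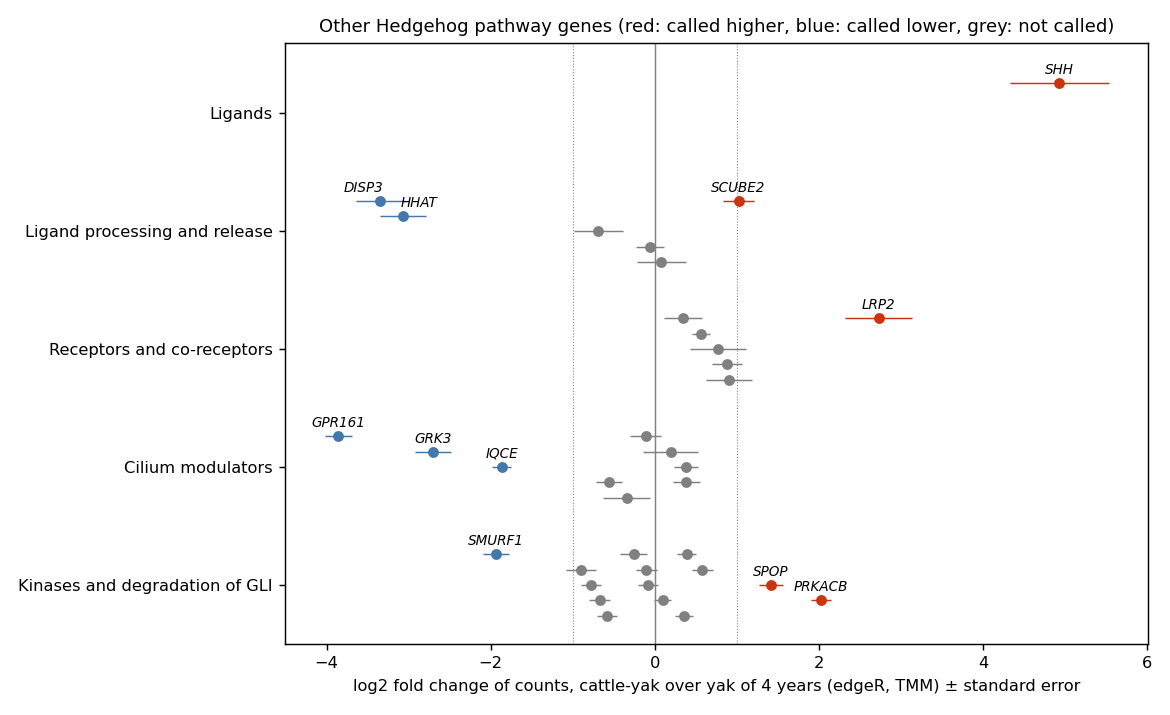
Further Hedgehog pathway genes in cattle–yak over yak of 4 years, grouped by role. The horizontal axis is the log2 fold change of TMM-scaled counts with standard errors and dotted lines at 2-fold, and each point is 1 of the 36 tested genes, red for higher and blue for lower DTGs, grey for the rest. The 5 higher DTGs include *SHH* and *LRP2*, and the 6 lower include *GPR161*, *DISP3* and *HHAT*. *SHH* passed the filter on low counts through the cattle–yak libraries alone, so its red point is not taken as support.

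From 6 months to 4 years, 10 of the 35 tested genes of this list were higher and 10 lower DTGs, against 31% higher and 24.7% lower among all genes. The largest falls were those of *EVC2*, a ciliary partner of SMO, at −4.92 (SE 0.326), *GPC3*, a glypican that competes for the ligand, at −4.08 (SE 0.245), and *CDON*, a co-receptor like GAS1, at −2.95 (SE 0.271). Among 6 receptors and co-receptors 4 were lower DTGs and 1 was higher, and among 9 cilium modulators 3 were lower and 3 higher. *IQCE*, another cilium gene, rose by 2.57 (SE 0.152) and *HHAT* by 2.52 (SE 0.283). *DISP3* had 2, 2 and 0 counts in the juvenile yaks, and its pooled ratio at 4 years was 191 (95% exact interval of 74.1 to 705, counting error only). It passed the filter on low counts through the libraries of 4 years alone, so its call is not taken as support.

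Between cattle–yak and yak of 6 months, 4 of 36 were higher and 10 lower DTGs, against 18.1% higher and 19.7% lower among all genes. On library size alone 10 were higher, as were 31.3% of all genes. *EVC2* (−4.71, SE 0.295), *GPC3* (−3.15, SE 0.274) and *CDON* (−2.59, SE 0.276) were again the lowest. *SHH* (pooled ratio 62.0, interval 28.3 to 170), *LRP2* (log2 fold change 4.82, SE 0.449) and *DISP3* (pooled ratio 18.8, interval 7.12 to 70.2) were the highest. Of these, *SHH* and *DISP3* passed the filter on low counts through the cattle–yak libraries alone, so their calls are not taken as support. The 2 comparisons that start from 6 months share those 3 libraries.

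In the deposited KEGG annotation, the Hedgehog signalling pathway holds 52 genes, the 9 members included. Of the other 43, 39 were tested between cattle–yak and yak of 4 years, and 6 were higher and 7 lower DTGs, against 17.1% and 27% of all genes, and their log2 fold changes had a median of 0.10.

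Genes whose log2 CPM followed a Hedgehog gene most closely over the 12 libraries were sought among 12080 genes with a symbol. For *DHH* they were *GFRA1* (Pearson's r 0.979), *SLC35A2* (0.976), *MEGF6* (0.975), *TAPBP* (0.973) and *NCK2* (0.968). *GFRA1* encodes a receptor for the Sertoli cell factor GDNF and was on the spermatogonial marker list. For *GLI1* they were *TNKS2* (0.991), *WDR43*, *ETFA*, *WDR92* and *DECR1* (0.986), and for *PTCH1* they were *NT5DC2* (0.980), *LAMB2*, *SYNE3*, *SYP* and *PLXNC1* (0.977). These values describe 12 libraries in 4 groups that differ in depth and cell composition.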

How the data were processed

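Ribo-seq libraries of testis from 12 animals were grouped by their labels. The authors trimmed reads (fastp), discarded those from rRNA (Bowtie2) and from further small RNAs (BLAST), aligned RFs to the yak genome BosGru 3.0 with STAR and quantified genes with RSEM. RSEM's expected count per gene, which the authors deposited as an unnormalized whole number, was the unit tested. The deposited FPKM is this count relative to effective length and library total. Deposited group means, log2 fold changes, p-values and FDR of the authors' own comparisons were not used. The 12 library columns that occur in more than 1 of the 3 tables were checked to be identical.

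For each comparison, filterByExpr, TMM and the quasi-likelihood test of edgeR 4.0.16 (R 4.3.3) were run on the 6 libraries concerned, with Benjamini-Hochberg adjustment over all genes tested. The standard error was approximated as the log2 fold change over the square root of F. The test was checked on counts simulated for cattle–yak over yak of 4 years alone, so this check does not cover the other comparisons. Alternatives were DESeq2 1.42.0, RLE scaling, library size alone, no filter, all 12 libraries in 1 fit, limma 3.58.1 on log2(FPKM + 1) or log2(FPKM + 0.1), a block for the replicate number, and leaving out each library in turn. Figures were drawn with matplotlib 3.10.9, and scipy 1.17.1 (Python 3.11.15) gave exact intervals.

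The 9 genes, the marker lists and the wider pathway list were chosen with earlier results of these data known. Beyond the 9, the text names the marker genes of the lists, the 3 DTGs of the wider list with the largest rise and the 3 with the largest fall per comparison, and the 5 genes that correlate best with *DHH*, *GLI1* and *PTCH1*. *IHH* was added for its role. Libraries were taken as 1 animal each, so p-values measure the spread between libraries. Sequences and motifs were not analysed here.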

Additional observations from a re-analysis of the deposited data

How the results depend on the processing

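Most results held. Over the 9 genes and 5 comparisons, 556 of the alternative values kept direction and side of the thresholds, 36 newly passed them, 20 no longer passed and 18 changed sign. For 18 over 6 months, the number of lower Hedgehog genes went from 0 to 2 with DESeq2 and to 2 with all 12 libraries in 1 fit. These fits called 5.43% and 4.9% of all genes lower. With 1 library left out the number was 0 to 3, beside 0% to 8.08% of all genes. For 4 years over 18 months it went from 0 to 7 under either setting, beside 14.2% and 14% of all genes. With 1 library left out it was 0 to 8, beside 0% to 18.5% of all genes. On log2(FPKM + 1) with limma, which compresses low values, 3 of 9 were lower at 4 years than at 6 months (12.7% of all genes). On that scale 1 (*HHIP*) was higher in cattle–yak than in yak of 4 years (13.6% of all genes). In cattle–yak 2 were lower than at 6 months (8.71% of all genes). The last number was 3 on log2(FPKM + 0.1) and 3 with library size alone, beside 5. These stood against 12.1%, 12% and 19.7% of all genes.

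Changes of sign concerned values near 0. From 6 to 18 months *PTCH1* reached 0.335, 0.286, 0.303, 0.085 and 0.18 and *GLI2* 0.147, 0.044, 0.063 and 0.072 (library size alone, limma with either pseudocount and single libraries left out). With 1 library left out they ranged from −0.217 to 0.18 and from −0.631 to 0.072. In cattle–yak over 6 months *GLI1* reached 0.444, 0.26, 0.427 and 0.01 and *GLI2* 0.379, 0.187, 0.383 and 0.077 under the same kinds of setting, with ranges of −0.184 to 0.01 and −0.295 to 0.077 over left-out libraries. *SMO* in cattle–yak over yak of 4 years was −0.089 without cattle–yak replicate 2 and 0.403 without replicate 1. None of these was called.

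Replicate numbers did not pair the libraries, since deviations of same-numbered libraries correlated at −0.112 to 0.071. With the replicate block, the Hedgehog counts stayed at 0, 0, 9, 4 and 5. Beside the last 3, 24% of all genes were lower, 16.7% higher and 18.6% lower. The DTGs among all genes went from 3 higher and 7 lower to 235 and 303 for 18 over 6 months. They went from 0 and 6 to 0 and 0 for 4 years over 18 months. DESeq2 gave 1061 and 807 for the former and 2092 and 2291 for the latter, and the fit of all 12 libraries 1827 and 828, and 1121 and 2365. Calls that involve 18 months therefore depended on the tool, and the cause was not tested. Depth limited *GLI1*, *GLI2* and *HHIP* most, at 16 to 41 counts per yak of 4 years. The further pathway genes and markers were tried under the same settings after the data were seen: 307 values kept direction and call, and *DISP3* in cattle–yak over 6 months lost its call on log2(FPKM + 1) with limma (0.24). On that scale 6 in place of 10 further pathway genes were lower at 4 years than at 6 months, against 12.7% of all genes. In cattle–yak over 6 months 9 in place of 4 were higher and 4 in place of 10 lower, against 24.8% and 8.71% of all genes. On log2(FPKM + 0.1) 12 were higher, against 32% of all genes.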
